A study of Mus musculus with 6 samples.

Results

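Antiviral interferon-stimulated genes were followed in regulatory T cells (Tregs) whose gene for the zinc finger protein Zfp335 was deleted. The members were chosen from a written list of 35 genes that encode antiviral effectors, nucleic acid sensors and their partners, and 32 of them were matched by symbol among the 13709 genes of the count table. All 32 passed the low-count filter and were among the 13594 genes tested. Oasl1, Rsad2 and Ifi203 were not analysed here.

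Bulk RNA-Seq was performed on CD4+YFP+CD25+ cells of 3 WT (Foxp3Cre) and 3 KO (Foxp3Cre Zfp335fl/fl) samples from C57BL/6 mice that, per the study's methods, were 2 weeks old. In both genotypes Cre and YFP are made from the Foxp3 locus, so the WT samples carry Cre and the reporter too, and only the KO samples carry the floxed Zfp335 alleles. The labels disagreed on lymph nodes or spleen as the source, and neither they nor the methods stated whether a sample was 1 mouse or a pool, so the p-values below measure the spread between these samples only. In bulk RNA fewer cells of a type cannot be told apart from less RNA per cell.

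Interferons are cytokines that warn cells of infection. Type I interferons signal through IFNAR1 and IFNAR2 and the kinases JAK1 and TYK2 to a complex that holds STAT2 and IRF9 and binds the interferon-stimulated response element (ISRE), whereas interferon-gamma signals through its own receptor to the gamma-activated site (GAS). Proteins of the induced genes detect foreign nucleic acid, degrade RNA, stop translation or hold virus particles at the cell surface, and in T cells the same genes mark exposure to interferon.

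The promoters of several members show the element through which these genes are known to respond, and the windows below are printed because they hold its core. The searched core was GAAANNGAAA on either strand, in the 300 bases from 250 before to 50 after each start (RefSeq, GRCm38.p6). Promoters were matched for 23 of the 32 genes, and 13 of these 23 (56.5%) held the core, against 1079 of 27025 genes of the whole promoter table (3.99%). Capitals mark the matches, and the Ifit1 and Ifit3 matches lie on the strand opposite to the one printed.
Isg15 (chr4:156200856-156200915, minus strand): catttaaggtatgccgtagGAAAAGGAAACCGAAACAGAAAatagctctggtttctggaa
Ifit1 (chr19:34640769-34640828, plus strand): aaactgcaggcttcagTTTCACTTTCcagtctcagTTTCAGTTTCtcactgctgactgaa
Ifit3 (chr19:34583365-34583424, plus strand): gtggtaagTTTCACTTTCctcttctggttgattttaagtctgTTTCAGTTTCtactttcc
Oas3 (chr5:120777700-120777759, minus strand): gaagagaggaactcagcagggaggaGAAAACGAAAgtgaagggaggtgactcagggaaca
Bst2 (chr8:71537565-71537624, minus strand): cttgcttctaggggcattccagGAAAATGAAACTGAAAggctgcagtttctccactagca

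All of these windows end upstream of the annotated start. The Isg15 window held 3 overlapping matches, the first at position -78 relative to the start, and the Bst2 window held 2 overlapping matches. The same 60 bases as in the Ifit3 window stood before Ifit3b (chr19:34607761-34607820). No match was found in the promoters of Cmpk2, Dtx3l, Herc6, Ifi35, Ifi44, Isg20, Lgals3bp, Oasl2, Samd9l and Xaf1, which says only that these letters were not in those windows. The GAS core TTCNNNGAA stood in the promoters of 5 of the 23 genes (21.7%), against 9.55% of all genes of the table.

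The libraries held 32032631 to 40728419 counts, and levels are in CPM, which relate each count to its library total after TMM scaling. Zfp335 itself was at 101, 94.3 and 103 CPM in WT and 37.0, 37.9 and 40.2 CPM in KO, so it was lower in every sample labelled KO. WT replicate 3 stood apart. The median over genes of the squared difference between libraries, relative to that of counting noise, was 25.4 and 25.0 for its pairs with WT replicates 1 and 2, compared with 9.995 for WT replicates 1 and 2 and 5.26 to 6.05 among the KO samples, so results are also given without WT replicate 3. The summed Treg markers (6 of 6) were at 4069, 3927 and 5104 CPM in WT and 3309 to 3405 CPM in KO. Foxp3, Ctla4, Ikzf2 and Cd3e were lower in every KO sample than in any WT sample, as were 3749 of all 13594 genes tested. Cd4 went the other way, at 682, 646 and 648 CPM in WT and 814, 784 and 765 CPM in KO. Il2ra in KO (954 to 964 CPM) lay between WT replicates 1 and 2 (903 and 909 CPM) and WT replicate 3 (1302 CPM).

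Over the interferon-stimulated genes together, the KO samples lay above WT replicates 1 and 2 and below WT replicate 3. The 32 genes summed to 1842, 1870 and 4183 CPM in the WT samples (replicates 1 to 3) and to 3296, 3261 and 3218 CPM in the KO samples, so the WT values enclosed those of KO. With all 6 samples, 5 genes were called higher in KO (fold change above 1.5, p under 0.05, and adjusted p under 0.1) and 0 were called lower. These 5 were Oas3, Oasl2, Zbp1, Parp9 and Lgals3bp. The 5 are 15.6% of the 32, whereas 11.9% of all genes tested were called higher and 12.5% lower, so the share of members called higher was near that background. By edgeR, 6 of the 32 had an unadjusted p under 0.05 in either direction, compared with 6468 of all 13594 genes tested. Of these 6 members, 0 had a lower value in KO. DESeq2 called 4 of the 32 higher and 0 lower. The log2 fold change was positive for 26 genes and negative for 6, with a median of 0.32 compared with -0.035 over all genes tested. It ranged from -0.69 for Ifit1 to 1.41 for Oasl2.

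**Figure D1:**
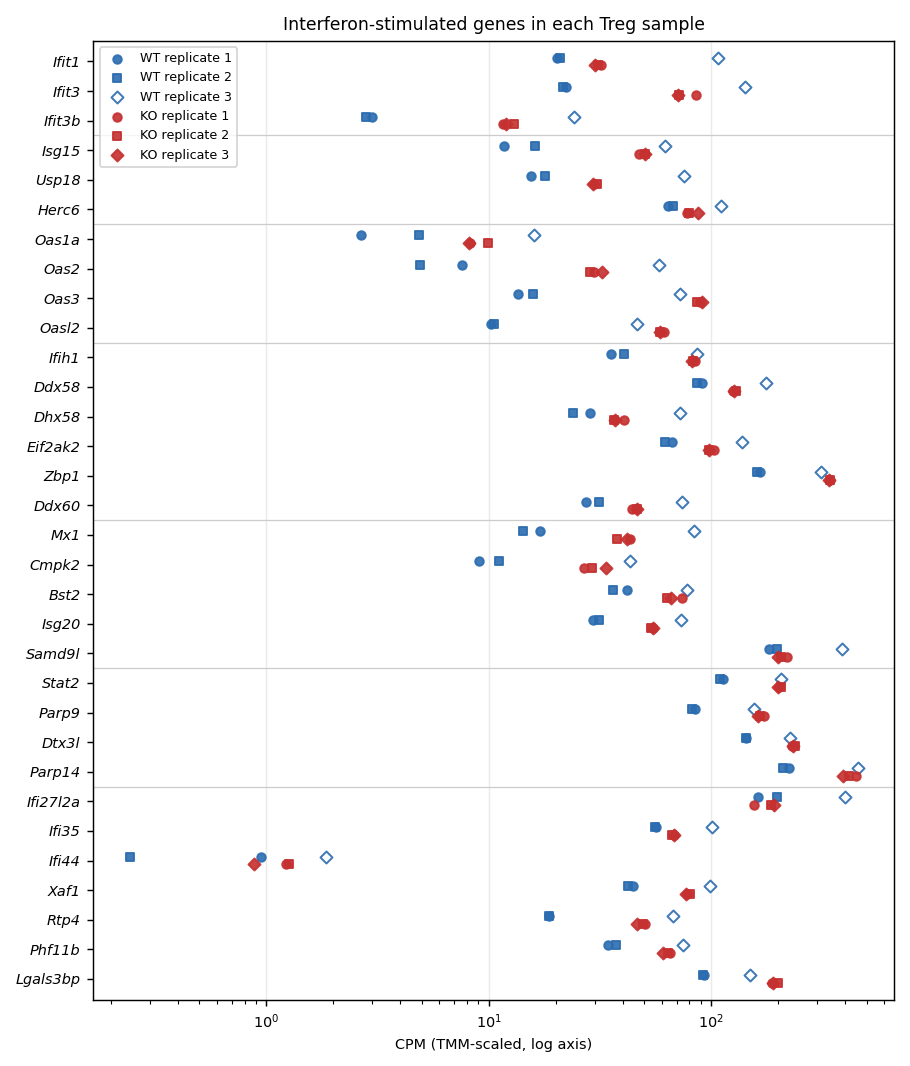
Expression of the 32 interferon-stimulated genes in each sample, in CPM on a log axis. Symbols mark single samples, blue for WT and red for KO, and grey lines separate the roles. The open diamonds of WT replicate 3 lie to the right of the other WT samples for every gene, and the KO symbols lie close together.

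WT replicate 3 had the highest WT value for every one of the 32 genes. It exceeded both WT replicate 1 and WT replicate 2 by more than 1.5-fold for 32 of 32 genes, compared with 8.44% of all genes tested. The ratio of WT replicate 3 to the mean of the other WT samples ran from 1.59 for Dtx3l to 9.28 for Oas2, with a median of 2.35 (all genes tested, 0.996). The coefficient of variation in WT had a median of 53.9% over the 32 genes and 13.8% over all genes tested. In KO the medians were 3.38% and 6.57%. The variation was larger in WT than in KO for 32 of 32 genes, and for 10309 of all 13594 genes tested. The KO samples were thus tight for these genes, whereas the WT samples were not.

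Without WT replicate 3, 24 of the 32 genes were called higher in KO (75.0%) and 0 lower, against 13.6% of all genes called higher and 13.2% lower in the same fit. The median log2 fold change was 0.87 (all genes tested, -0.016), and 31 of 32 values were positive. Every KO value lay above WT replicates 1 and 2 for 30 of the 32 genes, compared with 33.7% of all genes tested. Every KO value lay above all WT values for 6 of 32 (18.8%), compared with 26.2% of all genes. Every KO value lay below all WT values for 0 of 32, compared with 3749 of all 13594 genes tested. The genes called higher went from 5 to 24 by leaving out this library, and when any other single library was left out instead, Lgals3bp alone was called higher. WT replicate 3 was above both other WT samples for all 32 genes, so leaving it out had to move their changes upward. That move is no separate support for a rise in KO. The p-values of the fit without it rest on 2 WT samples and do not measure the spread that WT replicate 3 adds.

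**Figure D2:**
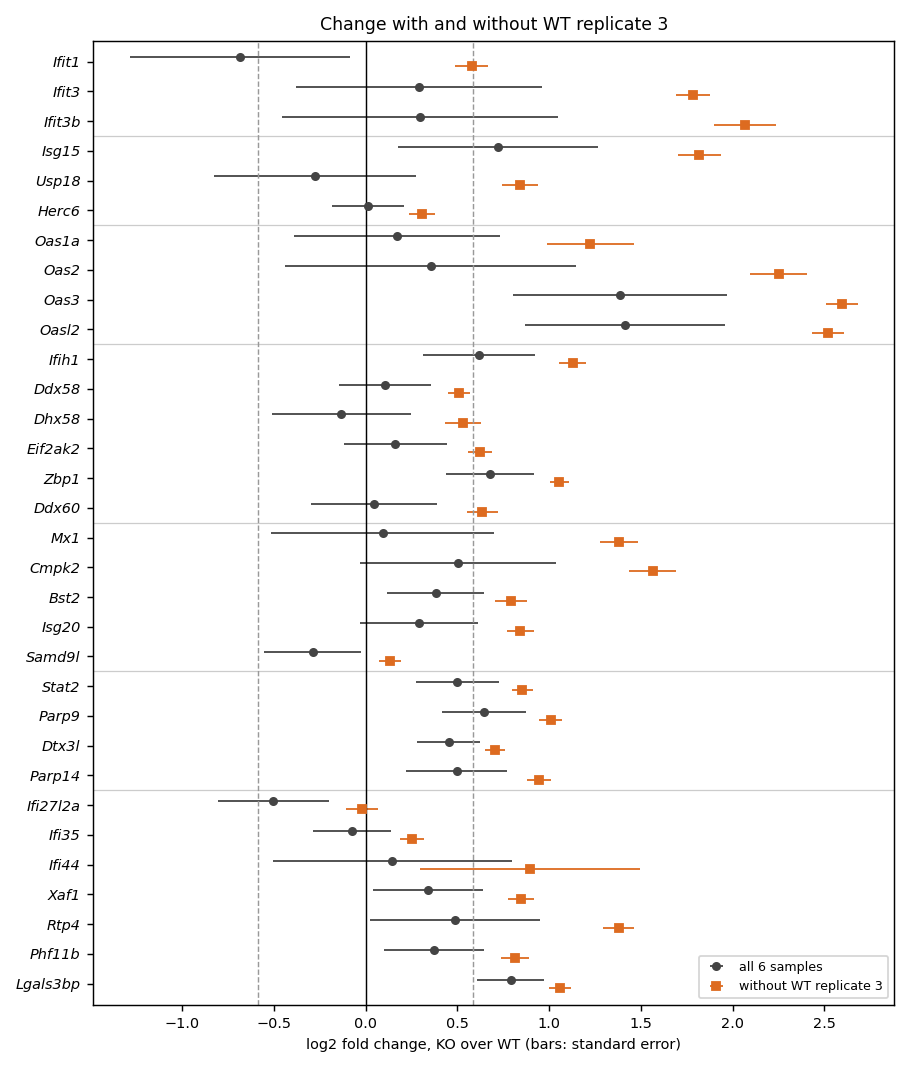
log2 fold change of KO over WT for the 32 interferon-stimulated genes, with all 6 samples (grey circles) and without WT replicate 3 (orange squares). Bars are standard errors, and dashed lines mark a fold change of 1.5. The squares lie to the right of the circles for each gene and their bars are shorter, and the lowest square is that of Ifi27l2a at -0.019.

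The IFIT proteins bind foreign RNA and keep it from being translated, and their genes lie in a cluster on chromosome 19 (Ifit1, chr19:34640871-34650009; mm10). Ifit1 was at 20.3, 21.0 and 108 CPM in the WT samples (replicates 1 to 3) and 31.9, 30.9 and 30.0 CPM in the KO samples. WT replicate 3 was the highest sample and the KO values lay just above the other WT samples. Ifit1 had the lowest log2 fold change of the list, at -0.69 (adjusted p = 0.408, SE 0.60) with all samples, and 0.58 (adjusted p = 8.41e-05, SE 0.090) without WT replicate 3, which is under the fold cutoff. Ifit3, which binds IFIT family partners, was at 22.4, 21.6 and 142 CPM in WT and 85.2, 71.5 and 71.0 CPM in KO. The KO values of Ifit3 stood between those of WT replicates 1 and 2 and that of WT replicate 3. Its log2 fold change was 0.29 (adjusted p = 0.767, SE 0.67), and Ifit3 was called higher when WT replicate 3 was left out, at 1.78 (adjusted p = 8.74e-10, SE 0.093). Ifit3b, a near copy of Ifit3, was at 2.99, 2.80 and 24.1 CPM in WT and 11.6, 13.1 and 11.9 CPM in KO. Reads of Ifit3 and Ifit3b can be exchanged, since 31.7% of the 100-base stretches of Ifit3 and 27.4% of those of Ifit3b occur in the other gene, and their values are uncertain to that extent.

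Isg15 encodes a ubiquitin-like protein that is joined to other proteins and is also released from cells. It was at 11.8, 16.2 and 62.0 CPM in the WT samples (replicates 1 to 3) and 47.5, 50.4 and 50.2 CPM in the KO samples. The WT values spanned the KO values, and the KO mean was 3.53-fold that of WT replicates 1 and 2. The log2 fold change was 0.72 (adjusted p = 0.336, SE 0.55) with all samples and 1.82 (adjusted p = 7.40e-09, SE 0.12) without WT replicate 3. Usp18, the protease that removes ISG15 and restrains IFNAR signaling, was at 15.5, 18.0 and 75.8 CPM in WT and 29.9, 30.8 and 29.5 CPM in KO. Its direction depended on WT replicate 3, with a log2 fold change of -0.28 (adjusted p = 0.728) with that sample and 0.84 (called higher, adjusted p = 5.63e-06) without it. Herc6, the main mouse ligase for ISG15, varied less, at 64.1, 67.5 and 111 CPM in WT and 77.9, 79.4 and 87.3 CPM in KO. It was not called in either fit, with a log2 fold change of 0.012 with all samples that turned to -0.018 with scaling by library totals alone. Herc6 shares 10.3% of its 100-base stretches with the gene model Gm45193.

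The oligoadenylate synthetases make the second messenger that switches on RNase L, which cuts RNA. Oas3, the largest enzyme of this family (chr5:120753098-120777661), was at 13.5, 15.8 and 72.5 CPM in the WT samples (replicates 1 to 3) and 89.1, 86.2 and 91.0 CPM in the KO samples. All KO values lay above all WT values, although WT replicate 3 came close. Oas3 rose from 33.9 ± 33.4 to 88.8 ± 2.42 CPM (mean ± SD, n = 3), a log2 fold change of 1.39 (adjusted p = 0.0975, SE 0.58), and without WT replicate 3 it had the largest change of the list, at 2.60 (adjusted p = 8.97e-12, SE 0.086). Oasl2, a relative with ubiquitin-like domains (chr5:114896936-114912234), was at 10.2, 10.5 and 46.4 CPM in WT and 61.3, 58.8 and 58.7 CPM in KO. It rose likewise with no overlap between the genotypes, with a log2 fold change of 1.41 (adjusted p = 0.0748, SE 0.54) and 2.52 (adjusted p = 1.25e-11, SE 0.087) without WT replicate 3. Oas2 was at 7.63, 4.93 and 58.3 CPM in WT and 29.7, 28.5 and 32.3 CPM in KO. Unlike those of Oas3, the KO values of Oas2 lay between those of the WT samples, and its log2 fold change of 0.35 (adjusted p = 0.760, SE 0.79) did not pass. Oas1a, at 2.66, 4.87 and 15.9 CPM in WT and 8.27, 9.96 and 8.14 CPM in KO, did not pass either with all samples. Both were called higher without WT replicate 3, at 2.25 for Oas2 and 1.22 for Oas1a. Oas1a is uncertain because 40.9% of its 100-base stretches also occur in Oas1g. DESeq2 did not call Oas3 (log2 fold change 1.41, adjusted p = 0.125).

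Among the sensors of nucleic acid, Zbp1 detects the Z form of DNA and RNA and can start cell death (chr2:173206612-173218923). It was at 165, 162 and 312 CPM in the WT samples (replicates 1 to 3) and 342, 342 and 338 CPM in the KO samples. The KO values were nearly equal and above all WT values. Zbp1 rose by a log2 fold change of 0.68 (adjusted p = 0.0563, SE 0.24), and by 1.05 (adjusted p = 5.49e-10, SE 0.053) without WT replicate 3. Ifih1, which encodes the long double-stranded RNA sensor MDA5, was at 35.4, 40.6 and 86.9 CPM in WT and 84.9, 82.9 and 82.0 CPM in KO. Its KO values were about equal to WT replicate 3, and the log2 fold change of 0.62 (adjusted p = 0.149, SE 0.30) did not pass, whereas it was called higher without WT replicate 3 at 1.13 (adjusted p = 1.32e-08, SE 0.076). Ddx58, which encodes RIG-I, was at 91.5, 86.7 and 177 CPM in WT and 126, 129 and 126 CPM in KO and was not called in either fit. Dhx58, which encodes the related helicase LGP2, was at 28.6, 23.9 and 72.9 CPM in WT and 40.8, 36.5 and 37.0 CPM in KO and was not called either. Its log2 fold change turned from -0.13 (adjusted p = 0.813) to 0.53 (adjusted p = 3.40e-04) without WT replicate 3. Eif2ak2, which encodes the kinase PKR that stops translation upon binding double-stranded RNA, was at 66.9, 61.9 and 138 CPM in WT and 103, 97.7 and 98.1 CPM in KO. Ddx60, a helicase linked to RIG-I signaling, was at 27.4, 31.3 and 74.2 CPM in WT and 44.2, 46.5 and 46.4 CPM in KO. For both, WT replicate 3 exceeded all KO samples, and both were called higher in the fit without it and not with all samples (0.62 and 0.64 on the log2 scale).

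The effectors that act on virus replication and release held no gene called with all 6 samples. Mx1, a dynamin-like GTPase that traps viral components, was at 17.0, 14.3 and 83.8 CPM in the WT samples (replicates 1 to 3) and 43.3, 37.7 and 41.7 CPM in the KO samples. The KO mean was 0.488 of WT replicate 3 and 2.62-fold that of the other WT samples, and the log2 fold change was 0.093 (adjusted p = 0.922, SE 0.61). Cmpk2, a mitochondrial nucleotide kinase, was at 9.10, 11.1 and 43.3 CPM in WT and 26.9, 29.0 and 33.9 CPM in KO. Bst2, which encodes tetherin and holds budding virus at the membrane, was at 41.9, 36.1 and 78.3 CPM in WT and 74.2, 63.6 and 65.9 CPM in KO. Isg20, an exonuclease that degrades RNA, was at 29.3, 31.2 and 73.2 CPM in WT and 55.0, 53.7 and 54.7 CPM in KO. As for Mx1, the KO samples of these genes lay between WT replicates 1 and 2 and WT replicate 3, and all 4 were called higher without WT replicate 3, with log2 fold changes of 1.38 for Mx1, 1.56 for Cmpk2, 0.79 for Bst2 and 0.84 for Isg20. Samd9l, which restrains viral translation, differed. It was at 182, 198 and 386 CPM in WT and 220.4, 206 and 200.4 CPM in KO, so that the KO samples were hardly above WT replicates 1 and 2, and the log2 fold change was -0.29 (adjusted p = 0.422, SE 0.26) with all samples and 0.13 (adjusted p = 0.0812, SE 0.061) without WT replicate 3.

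Stat2, Parp9, Dtx3l and Parp14 encode signaling proteins, and their KO values were close to WT replicate 3. Parp9 and Dtx3l form a complex of an ADP-ribosyltransferase and a ubiquitin ligase, and the neighboring genes lie head to head on chromosome 16 (Parp9, chr16:35938470-35972605). Parp9 was at 84.5, 82.0 and 155 CPM in the WT samples (replicates 1 to 3) and 174, 167 and 163 CPM in the KO samples. All KO values lay above all WT values, and Parp9 rose by a log2 fold change of 0.65 (adjusted p = 0.0593, SE 0.23). Dtx3l was at 144, 143 and 228 CPM in WT and 230.0, 239 and 235 CPM in KO. The genotypes did not overlap for Dtx3l either, and its log2 fold change of 0.45 (adjusted p = 0.0748, SE 0.17) passed the adjusted p but not the fold cutoff. The exons of the pair overlap by 458 bases on opposite strands, and whether counting used the strand was not stated, so part of the reads of either gene may come from the other. Stat2, the partner of IRF9 in the complex that binds the ISRE, was at 113, 110.3 and 206 CPM in WT and 203, 206 and 199 CPM in KO. Parp14, an ADP-ribosyltransferase of macrophages and lymphocytes, was at 223, 211 and 458 CPM in WT and 449, 416 and 391 CPM in KO. Neither was called with all samples (adjusted p = 0.121 for Stat2 and 0.198 for Parp14), and all 4 genes of this role were called higher without WT replicate 3, by log2 fold changes of 0.70 to 1.01.

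The remaining members are induced by interferon and have other or less defined roles. Lgals3bp, which encodes a secreted glycoprotein that binds galectins (chr11:118392751-118402092), was at 93.3, 91.7 and 150.3 CPM in the WT samples (replicates 1 to 3) and 188, 201 and 191 CPM in the KO samples. The lowest KO sample was above the highest WT sample. Lgals3bp rose from 112 ± 33.4 to 193 ± 6.80 CPM (n = 3) with the lowest adjusted p of the list, a log2 fold change of 0.79 (adjusted p = 0.0114, SE 0.18), and 1.06 (adjusted p = 2.14e-09, SE 0.060) without WT replicate 3. It was also the member called whichever single sample was left out. Ifi27l2a, a small mitochondrial protein, was at 163, 197 and 399 CPM in WT and 157, 186 and 192 CPM in KO. The KO values of Ifi27l2a overlapped those of WT replicates 1 and 2, and its log2 fold change was -0.51 (adjusted p = 0.228, SE 0.30) with all samples and -0.019 (adjusted p = 0.875, SE 0.089) without WT replicate 3. Without WT replicate 1 it was the member called lower, at -0.74 (adjusted p = 0.0801). Per kilobase of exon, Ifi27l2a had the highest level of the list in both genotypes (547 CPM per kb in WT and 385 in KO), ahead of Zbp1 (60.4 and 96.6).

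Xaf1, which promotes cell death, was at 44.8, 42.4 and 99.3 CPM in WT and 78.4, 80.3 and 77.3 CPM in KO. Rtp4, a receptor-transporting protein induced by interferon, was at 18.8, 18.7 and 67.1 CPM in WT and 50.6, 49.4 and 46.4 CPM in KO. Phf11b, a PHD finger protein, was at 34.4, 37.4 and 74.8 CPM in WT and 65.2, 63.8 and 60.6 CPM in KO. In all of these genes the KO values fell between WT replicates 1 and 2 and WT replicate 3, none passed with all samples, and all were called higher without WT replicate 3 (0.85, 1.38 and 0.81 on the log2 scale, in that order). Ifi35, at 56.8, 56.2 and 101 CPM in WT and 67.9, 66.6 and 68.2 CPM in KO, was not called in either fit. Ifi44 had few counts, at 0.951, 0.244 and 1.86 CPM in WT and 1.23, 1.27 and 0.879 CPM in KO, and no difference was detectable at this depth (log2 fold change 0.15, adjusted p = 0.883, with an SE of 0.65).

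The members differed in where the KO mean lay between the low WT samples and WT replicate 3. On the log2 scale, with 0% at the mean of WT replicates 1 and 2 and 100% at WT replicate 3, the median position was 69.1%. It was above 100% for 6 genes, from 50% to 100% for 18, and under 50% for 8. The extremes were -1.41% for Ifi27l2a and 152% for Lgals3bp. By role, the medians were 102% for the Stat2, Parp and Dtx3l group (n = 4), 91.5% for the oligoadenylate synthetases (n = 4), 71.7% for the other interferon-induced genes (n = 7), 66.5% for the effectors (n = 5), 66.3% for the IFIT genes (n = 3), 54.5% for the sensors (n = 6) and 41.05% for the ISG15 system (n = 3). The position is relative to how far WT replicate 3 stood from the other WT samples, and does not rank the size of the rise. The KO mean was a median of 1.87-fold that of WT replicates 1 and 2 in the Stat2 group and 5.27-fold in the synthetases. Compared with WT replicate 3 alone, the KO mean was more than 1.5-fold lower for 12 of the 32 genes (19.0% of all genes tested) and more than 1.5-fold higher for 0 of 32 (18.0% of all genes tested), and for 20 it was within 1.5-fold. This comparison is with 1 library and has no test.

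**Figure D3:**
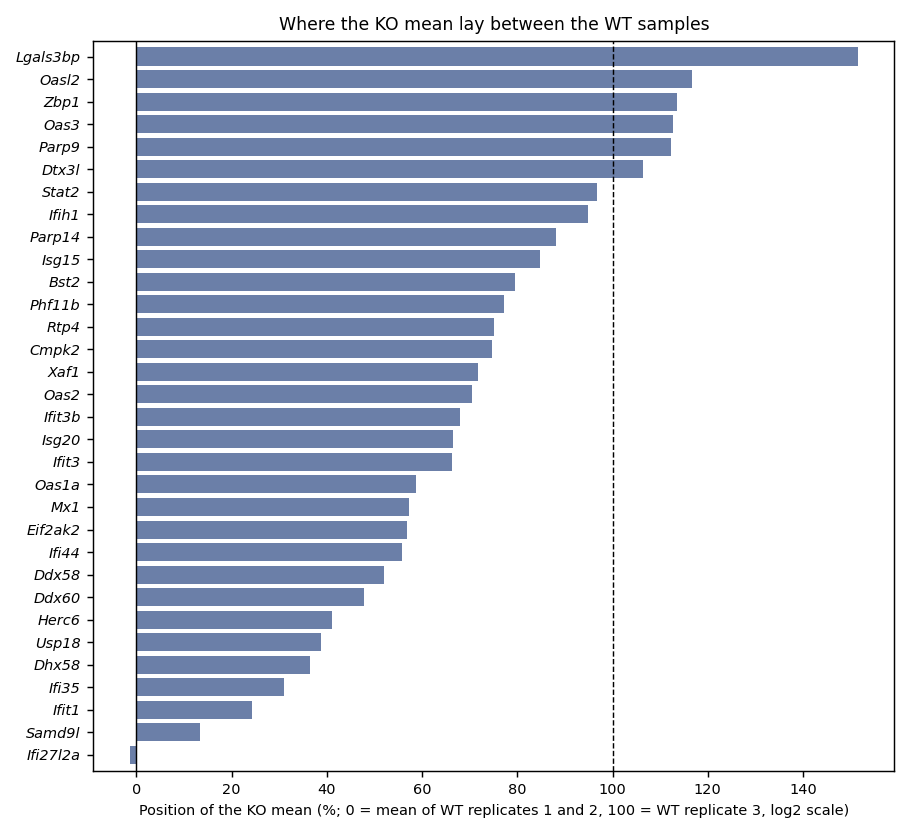
Position of the KO mean of each interferon-stimulated gene, in percent of the log2 distance from the mean of WT replicates 1 and 2 (0) to WT replicate 3 (100, dashed line). Lgals3bp, Oasl2, Zbp1, Oas3, Parp9 and Dtx3l reach past WT replicate 3, and Ifi27l2a lies at the level of the low WT samples.

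The genes upstream of the members were taken from lists of the pathway. Of 15 tested genes for ligands, receptors and signaling, 4 were called higher (Ifng, Ifngr1, Jak2 and Irf1) and 2 lower (Ifnar2 and Il10rb), and without WT replicate 3 the counts were 6 and 2. The shares called higher were 26.7% and 40%, compared with 11.9% and 13.6% of all genes tested. Of all genes, 12.5% and 13.2% were called lower. Ifng, the ligand of the type II receptor, was at 3.78, 4.54 and 2.64 CPM in WT and 82.8, 84.7 and 84.4 CPM in KO. Its log2 fold change was 4.52 (adjusted p = 7.11e-06, SE 0.18), and 4.34 without WT replicate 3. It was the gene of this list with the largest rise, while in WT it was lowest in WT replicate 3, the sample with the highest interferon-stimulated genes. Genes of the type I and type III interferons were not analysed here. Ifnar2, a chain of the type I receptor, fell from 81.1 ± 3.05 to 46.4 ± 2.48 CPM (log2 fold change -0.81, adjusted p = 2.05e-04, with an SE of 0.074, and -0.84 without WT replicate 3). Ifnar1 was at 281, 258 and 279.6 CPM in WT and 223, 219.6 and 205 CPM in KO, with a log2 fold change of -0.34 that was under the fold cutoff (adjusted p = 0.00682). Il10rb, which serves the type III receptor, fell by 0.93 on the log2 scale (adjusted p = 2.08e-04), the same to 2 decimals without WT replicate 3. For both chains of the type I receptor every KO value lay below every WT value, as it did for 3749 of all 13594 genes tested.

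Ifngr1, the ligand-binding chain of the interferon-gamma receptor, rose from 166 ± 60.2 to 389 ± 18.5 CPM (log2 fold change 1.23, adjusted p = 0.00364, with an SE of 0.22, and 1.57 without WT replicate 3). The other chain went the opposite way. Ifngr2 was at 56.4, 56.9 and 58.6 CPM in WT and 37.9, 38.2 and 40.4 CPM in KO, so that every KO value lay below every WT value, and its log2 fold change of -0.56 (adjusted p = 7.75e-04, SE 0.070) passed the adjusted p but not the fold cutoff (-0.55 without WT replicate 3). Jak2, the kinase that binds Ifngr2, was at 152, 167 and 206 CPM in WT and 326, 326 and 324 CPM in KO (log2 fold change 0.89, adjusted p = 7.21e-04, with an SE of 0.11, and 1.02 without WT replicate 3). Irf1, a transcription factor that interferon-gamma induces through GAS elements, was at 234, 211 and 399 CPM in WT and 587, 534 and 556 CPM in KO (log2 fold change 0.99, adjusted p = 0.00963, with an SE of 0.22, and 1.32 without WT replicate 3). Irf7, the amplifier of the type I response, was at 58.5, 60.4 and 203 CPM in WT and 131, 122 and 126 CPM in KO, with the KO samples between the WT samples as in most members. Its log2 fold change was 0.24 (adjusted p = 0.715, SE 0.45), and Irf7 was called higher in the fit without WT replicate 3, at 1.08 (adjusted p = 3.73e-09, SE 0.065). Irf9, the partner of STAT2, was at 145, 141 and 204 CPM in WT and 153, 151 and 159.9 CPM in KO and was not called in either fit.

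The interferon-inducible GTPases, chiefly of the GBP and IRG families, which attack vacuoles of intracellular microbes, were compared with the members because both are interferon-stimulated. Gvin1, of neither family, was counted among the GTPases. Of 17 GTPase genes, 11 were called higher and 0 lower, all 17 log2 fold changes were positive with a median of 0.81, and 13 were called higher when WT replicate 3 was left out. The shares called higher were 64.7% and 76.5%, compared with 11.9% and 13.6% of all genes tested. Several GTPases, like the Ifi200 genes below, are near copies of each other, and the counting may have split reads between them. Gbp2 was at 71.6, 78.4 and 130.2 CPM in WT and 505, 478 and 477 CPM in KO, a log2 fold change of 2.38 (adjusted p = 2.02e-04, SE 0.22), and of 2.69 without WT replicate 3. Iigp1 was at 32.0, 42.1 and 84.4 CPM in WT and 193, 206 and 205 CPM in KO, a log2 fold change of 1.93 (adjusted p = 0.00257, SE 0.32), and of 2.44 without WT replicate 3. The KO mean exceeded WT replicate 3 by more than 1.5-fold for 8 of 17 GTPases and 0 of 32 members, and the position of the KO mean defined above had a median of 156% for the GTPases and 69.1% for the members. WT replicate 3 was also the highest WT sample for 17 of 17 GTPases, by a median of 1.78-fold over the mean of the others, compared with 2.35-fold for the members. A smaller ratio makes the position larger for the same rise. Gbp8, which was not called, was at 259% with a ratio of 1.14. The difference between the lists was not tested. An ISRE core was found in the promoters of 9 of the 9 GTPase genes matched, and a GAS core in those of 6 of the 9 (66.7%, compared with 21.7% of the members matched).

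**Figure D4:**
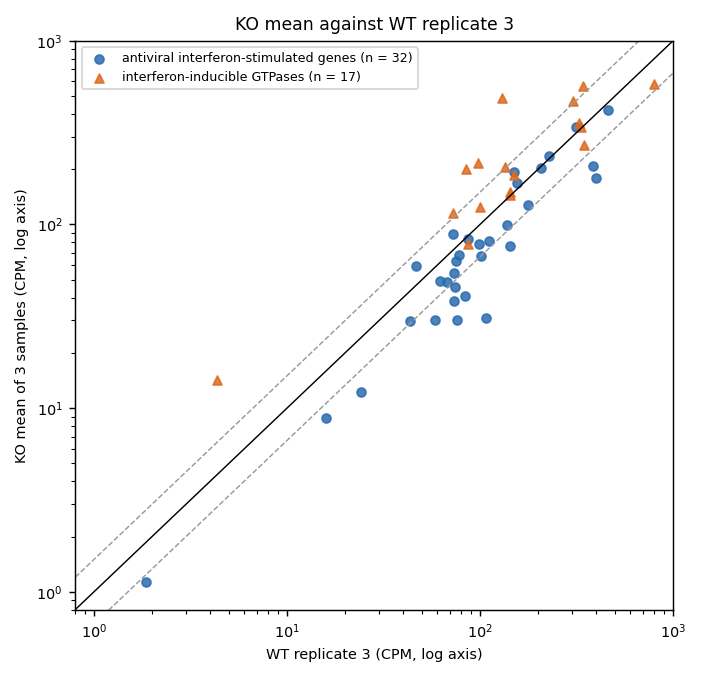
KO mean of 3 samples against WT replicate 3, both in CPM on log axes, for 32 antiviral interferon-stimulated genes (circles) and 17 interferon-inducible GTPases (triangles). The solid line is equality and dashed lines are 1.5-fold to either side, and 8 triangles and 0 circles lie above the upper dashed line.

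Of 35 tested relatives of the members, 8 were called higher and 2 lower, and without WT replicate 3 the counts were 12 and 3. The shares called higher were 22.9% and 34.3%, compared with 11.9% and 13.6% of all genes tested. The largest rises were in the Ifi200 family, whose proteins bind DNA. Ifi204 was at 1.28, 0.274 and 7.87 CPM in WT and 80.2, 75.3 and 78.7 CPM in KO (log2 fold change 4.64, adjusted p = 0.00341, with an SE of 0.82, and 6.60 without WT replicate 3). Ifi211 was at 0.896, 0.883 and 4.30 CPM in WT and 24.4, 25.1 and 21.5 CPM in KO (log2 fold change 3.55, adjusted p = 0.00214, with an SE of 0.56, and 4.72 without WT replicate 3). For both genes every KO value lay above all WT values, and WT replicate 3 was the highest WT sample. Ifi207 and Ifi205, at means of 0.301 and 1.83 CPM in WT, were also called higher in both fits. Their log2 fold changes with all samples were 3.10 and 1.08 (adjusted p = 0.0106 and 0.0205). Ifi206 was called higher only without WT replicate 3 (0.78), and Ifi213 in neither fit. Other genes of the family differed. Aim2, the DNA sensor of the inflammasome, fell from 58.0 ± 0.415 to 34.9 ± 1.85 CPM (log2 fold change -0.73, adjusted p = 3.16e-04, with an SE of 0.074, and -0.73 without WT replicate 3), and Ifi209 and Mndal were not called in either fit. Among relatives of the ISG15 system, Ube2l6, its conjugating enzyme, rose by 1.42 on the log2 scale (adjusted p = 0.0150), or by 1.97 without WT replicate 3, and Uba7, its activating enzyme, was at 236, 219.9 and 277 CPM in WT and 268, 260.0 and 252 CPM in KO and was not called.

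Of 16 adaptors and kinases downstream of the sensors, 6.25% were called higher with all samples and 18.8% without WT replicate 3. Over all genes tested these shares were 11.9% and 13.6%. Myd88 was called higher (log2 fold change 0.63, adjusted p = 0.00196, with an SE of 0.098) and Ikbke, a kinase that activates IRF3, was called lower (-0.71, adjusted p = 3.55e-04, with an SE of 0.074). Without WT replicate 3 these were 0.73 and -0.70, and 3 genes were called higher and 1 lower. The genes added were Tlr3, a sensor of double-stranded RNA, at 0.163, 0.213 and 1.26 CPM in WT and 0.657, 0.498 and 0.823 CPM in KO, and Trex1, an exonuclease that removes DNA from the cytosol, at 9.56, 6.06 and 21.1 CPM in WT and 13.7, 12.9 and 12.0 CPM in KO. Of 11 negative regulators of interferon signaling, 0 were called with all samples (by DESeq2 also 0). In edgeR 6 of the 11 had an unadjusted p under 0.05, as did 6468 of all 13594 genes tested. Socs3 and Usp25 were called higher without WT replicate 3. Socs3, an inhibitor of JAK signaling, was at 107, 109 and 246 CPM in WT and 249, 238 and 247 CPM in KO, so it too was high in WT replicate 3 and in KO.

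Markers of other cells were read beside these values. The summed B cell markers (4 of 4) were at 16.0 to 18.1 CPM in WT and 10.8 to 11.0 CPM in KO, and the CD8 T cell markers (2 of 2) at 9.32 to 13.2 CPM in WT and 12.0 to 12.7 CPM in KO. Monocyte or macrophage markers (4 of 5 analysed) were at 27.1, 27.8 and 16.6 CPM in WT and 46.3 to 53.7 CPM in KO, and NK cell markers (3 of 3) at 3.59 to 5.83 CPM in WT and 14.9 to 16.2 CPM in KO. Of the neutrophil markers, 2 of 4 were analysed, S100a8 and S100a9. They had 0 counts in every WT sample, where 3 counts are 0.0815 to 0.0913 CPM, and summed to 3.57 to 5.42 CPM in KO. The study reported high levels of both genes in the dysfunctional Treg subset of its single-cell data. Plasmacytoid dendritic cell markers (4 of 4, Bst2 among them) were at 58.6, 56.6 and 101 CPM in WT and 84.2 to 94.9 CPM in KO, of which Siglech, a defining marker, was at 0.842, 0.244 and 0.240 CPM in WT and 0.739, 0.996 and 0.993 CPM in KO. Erythroid markers (3 of 3) were at 53.8, 63.2 and 15.5 CPM in WT and 27.3 to 30.0 CPM in KO, so the KO values again lay between those of WT replicate 3 and the other WT samples, but here WT replicate 3 was the lowest sample. Monocyte, NK cell and neutrophil sums were higher in every KO sample than in any WT sample. Of the NK cell sum in KO, Eomes made 11.1 to 11.6 CPM and Ncr1, which was not called, 0.697 to 1.25 CPM. Of the monocyte markers, Lyz2, Csf1r and Itgam were called higher. Cd68 overlapped, at 8.17 to 10.3 CPM in WT and 8.74 to 11.3 CPM in KO. Within WT, replicate 3 had the highest NK cell and plasmacytoid dendritic cell sums and the lowest monocyte and erythroid sums. Genes within these lists differed. Bst2, itself a member, made 78.3 CPM of the plasmacytoid dendritic cell sum in WT replicate 3. Tcf4 was also the highest of WT there (14.1 CPM), whereas Siglech and Ccr9 (8.89 CPM) were the lowest of WT. Of the NK cell markers, Klrb1c and Eomes were highest in WT replicate 3, and Ncr1 was lowest (0.120 CPM). The part of these cells in the member values was not tested.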

How the data were processed

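RNA-Seq counts of 3 WT and 3 KO Treg samples were analysed. Per the study's methods and the submitters' processing notes, reads were aligned to mm10 with HISAT2 and quantified per gene. The authors deposited whole-number counts per gene without normalization, in 1 table of 13709 rows whose smallest sum over the 6 samples was 60. How the counts were made whole, the annotation and the use of strand were not given in the sources used here.

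Differential expression was tested with edgeR 4.0.16 in R 4.3.3 (filterByExpr with a minimum count of 10, TMM scaling, quasi-likelihood F-test of KO against WT, two-sided) over 13594 genes, with Benjamini-Hochberg adjustment over all of them. A gene was called at a fold change above 1.5, p under 0.05 and adjusted p under 0.1, the cutoffs of the study, which used DESeq2 (here 1.42.0, as an alternative). Standard errors (SE) were derived from the F statistic, as the size of the log2 change over the root of F. Positions, exon lengths and shared stretches came from GENCODE M21 (GRCm38, which mm10 denotes), and promoters from RefSeq (GRCm38.p6). CPM used the TMM-scaled library total. The depth of 32032631 to 40728419 counts put 3 counts at 0.0747 to 0.0913 CPM, for counting error only.

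Members and lists were chosen with earlier results of these data known, so no p was adjusted over a list. All listed members, Zfp335, and the genes of the pathway lists with the largest called changes or a place in the pathway's signaling could be named. Some genes of the pathway lists are not reported here. Some pathway genes, and the comparisons with WT replicate 3 alone, were chosen after their values were seen. The fit without WT replicate 3 was given throughout because that library was seen to stand apart. On simulated counts of 13594 genes with 200 changed, edgeR recovered 60% of those changed 2-fold and 77% of those changed 3-fold at the same cutoffs, and 9.87% of its calls were false. In the data 3318 genes were called. The simulation gave both genotypes the same spread and no library that stood apart, so its rates need not hold for the members. The alternatives tried were DESeq2, other scalings, other filters, other cutoffs, the replicate block and leaving out each sample.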

Additional observations from a re-analysis of the deposited data

How the results depend on the processing

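The count of 5 members called higher was 5 with RLE scaling, library totals alone, no low-count filter or at least 10 counts in every sample (31 members tested), and 4 with DESeq2. When a call needed only an adjusted p under 0.05 and no fold it was 1, with 5244 genes called in all (2610 higher and 2634 lower). With glmTreat against a fold change of 1.5 it was 0 (0 members at an unadjusted p under 0.05 as well), with 1686 genes called in all (941 higher and 745 lower) and 19 pathway genes instead of 29. Leaving out each sample gave 1 to 24 members called higher and 0 to 1 called lower, 26 to 42 pathway genes, and a median log2 fold change of the members of 0.019 to 0.87, with each highest count or median without WT replicate 3 except the call of a lower gene, which came without WT replicate 1. The cause of these changes was not tested.

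Samples of the same number did not deviate together (correlations 0.038, 0.040 and -0.012), so the numbers were not used to pair them. With the replicate block 6 members were called higher (Ifih1 added, at 0.74), 3190 genes in all and 32 pathway genes. Under the block, Usp18 (0.13) and Dhx58 (0.052) changed sign. With library totals alone Herc6 did (-0.018).

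Single samples decided the sign of 15 uncalled members. Their log2 fold changes, as each sample was left out in turn, ranged from -0.12 to 1.78 for Ifit3, -0.15 to 2.07 for Ifit3b, -0.13 to 0.31 for Herc6, -0.24 to 1.22 for Oas1a, -0.13 to 2.25 for Oas2, -0.079 to 0.51 for Ddx58, -0.048 to 0.62 for Eif2ak2, -0.21 to 0.64 for Ddx60, -0.30 to 1.38 for Mx1, -0.32 to 0.90 for Ifi44, -1.06 to 0.58 for Ifit1, -0.64 to 0.84 for Usp18, -0.42 to 0.53 for Dhx58, -0.48 to 0.13 for Samd9l and -0.22 to 0.25 for Ifi35. Each of these highest values was without WT replicate 3.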
